A study of Mus musculus with 6 samples.

Results

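The Gimap genes encode the GTPases of the immunity-associated protein family, and all 8 members sought (Gimap1, Gimap3, Gimap4, Gimap5, Gimap6, Gimap7, Gimap8 and Gimap9) were found by symbol among the 23366 gene symbols of the count table. RNA was sequenced from Foxp3-GFP knock-in mice aged 12 days, in which a fluorescent reporter at the Foxp3 locus marks regulatory T (Treg) cells. CD4+GFP+ cells were sorted from liver (n = 3 libraries) and spleen (n = 3 libraries), so every library carries the same knock-in allele and age and the groups differ in tissue. Libraries are numbered 1 to 3 within a tissue in accession order; the labels pair none of them and do not say whether each is 1 animal or a pool, so the p-values below speak of the spread among these 6 libraries alone, and that spread may be technical.

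Gimap proteins are small GTP-binding proteins of vertebrates, found mainly in lymphocytes, that share the AIG1 type of GTPase domain and sit on intracellular membranes. They are best known for keeping resting lymphocytes alive: loss of Gimap5 causes lymphopenia in rats and mice, and loss of Gimap1 depletes mature T and B cells. In mice the genes lie side by side in 1 cluster on chromosome 6.

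Counts in genes were between 8437055 and 10951720 in the liver libraries and were 1199410 in spleen 1, 11408960 in spleen 2 and 11358446 in spleen 3. Levels are given as CPM, a gene's counts relative to its library's total after TMM scaling. The defining markers of the labelled cells were abundant in both tissues: Cd4 had a mean of 662 ± 28.5 CPM for liver against 650 ± 64.3 CPM for spleen, and Foxp3 1266 ± 58.4 against 1160 ± 57.7 CPM (SD, n = 3 each). Other markers of these cells did differ by the edgeR test used below. Of 5 Treg markers, Ctla4 (733 ± 34.0 against 400 ± 86.2 CPM) and Ikzf2 (822 ± 104 against 642 ± 22.9 CPM) were higher in liver. Il2ra was lower there (408 ± 19.1 against 620 ± 32.5 CPM). So was Lat (324 ± 25.2 against 458 ± 34.0 CPM), the 1 of 8 T cell markers that passed. Over all genes 9.28% were higher in liver and 6.90% in spleen. The libraries also held transcripts of other cell types, listed after the member results. In sorted bulk samples, fewer cells that express a gene and less RNA per cell cannot be told apart.

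The promoters of 4 members are shown because these are the genes whose libraries separated by tissue: Gimap7, which was higher in liver, and Gimap3, Gimap5 and Gimap8, which were higher in every spleen library. Each is the RefSeq sequence of GRCm38.p6 from 250 bases before to 50 bases after an annotated start, in the gene's own direction; the authors' counts were made on mm9, so these positions are not in their build. Capitals mark matches, on either strand, to 6 short motifs: TGTGGT (RUNX), AGGAAG (ETS), TGTTTAC (FOXO), CTTTGA (TCF/LEF), CCACCC (KLF) and TTCNNNGAA (STAT).
Gimap7 (chr6:48718371-48718670, plus strand): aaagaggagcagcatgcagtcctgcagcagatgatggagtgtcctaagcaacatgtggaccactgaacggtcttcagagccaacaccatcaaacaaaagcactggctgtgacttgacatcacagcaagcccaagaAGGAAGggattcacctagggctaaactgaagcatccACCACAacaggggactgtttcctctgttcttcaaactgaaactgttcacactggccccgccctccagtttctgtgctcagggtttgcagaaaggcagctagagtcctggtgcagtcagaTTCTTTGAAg
Gimap3 (chr6:48770802-48771101, minus strand): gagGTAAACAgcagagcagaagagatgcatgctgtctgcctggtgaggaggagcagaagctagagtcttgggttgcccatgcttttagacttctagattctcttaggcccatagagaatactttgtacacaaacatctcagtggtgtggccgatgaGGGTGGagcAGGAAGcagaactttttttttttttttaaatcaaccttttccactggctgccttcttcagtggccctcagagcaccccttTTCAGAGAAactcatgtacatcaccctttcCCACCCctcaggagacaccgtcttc
Gimap5 (chr6:48745947-48746246, plus strand): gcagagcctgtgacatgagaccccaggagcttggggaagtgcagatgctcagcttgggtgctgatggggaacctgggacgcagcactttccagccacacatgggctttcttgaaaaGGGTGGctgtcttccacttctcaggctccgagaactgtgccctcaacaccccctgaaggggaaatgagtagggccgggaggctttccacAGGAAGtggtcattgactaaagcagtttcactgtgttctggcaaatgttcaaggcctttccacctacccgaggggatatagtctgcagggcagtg
Gimap8 (chr6:48646984-48647283, plus strand): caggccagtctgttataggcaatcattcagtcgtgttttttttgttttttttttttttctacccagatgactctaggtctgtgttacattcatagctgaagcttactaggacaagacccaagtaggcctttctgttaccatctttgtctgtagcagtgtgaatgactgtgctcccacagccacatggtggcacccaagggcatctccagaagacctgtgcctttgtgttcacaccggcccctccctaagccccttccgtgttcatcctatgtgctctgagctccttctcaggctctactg
The Gimap7 window held an ETS match 115 bases before the start, a RUNX match 79 bases before it, and a STAT match that begins 40 bases after it and overlaps a TCF/LEF match by 6 bases. Gimap3 held the FOXO match, 247 bases before the start, with 1 ETS, 2 KLF and 1 STAT match. Gimap5 held 1 ETS and 1 KLF match, and none of the 6 motifs was in the Gimap8 window shown. A second annotated Gimap8 start, at chr6:48647111-48647410, held 1 ETS, 1 KLF and 1 STAT match within 48 bases before it. Over the first listed window of each of the 8 members, ETS was matched in 6, KLF in 4, RUNX in 3, STAT in 3, TCF/LEF in 2 and FOXO in 1. Among all 32851 promoter windows of the same length the shares were 35.4% for ETS, 31.5% for KLF, 16.8% for RUNX, 8.30% for STAT, 16.0% for TCF/LEF and 3.65% for FOXO. A match is a string of letters and was not tested as a site.

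Gimap7 was the only member that passed the edgeR test between the tissues. Human GIMAP7 is known to form GTP-dependent dimers and to stimulate the GTPase activity of a family partner. Gimap7 was at 106, 98.5 and 143 CPM in liver 1, 2 and 3, and at 70.6, 52.9 and 64.9 CPM in spleen 1, 2 and 3. All liver libraries were above all spleen libraries, with liver 3 the highest and spleen 2 the lowest. The mean was 116 ± 23.7 CPM in liver against 62.8 ± 9.04 CPM in spleen (SD, n = 3 each), 1.90-fold higher (log2 fold change 0.92 ± 0.15, SE; edgeR quasi-likelihood test, adjusted p = 0.000212). The shallow library spleen 1 held 82 Gimap7 counts, with a 95% exact Poisson interval of 56.1 to 87.6 CPM that covers counting error only. That interval lies below the lowest liver value. By edgeR, 1 of the 8 members was higher in liver, where 9.28% of the 11716 genes tested were, and 0 of 8 were higher in spleen, where 6.90% of genes were. At an unadjusted p under 0.05 the count higher in spleen was 3, where 13.2% of genes were. With adjustment it was 0 by DESeq2 and 3 by limma-voom. Of the 11716 genes limma-voom called 1243 higher in spleen, more than the 808 of edgeR.

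**Figure D1:**
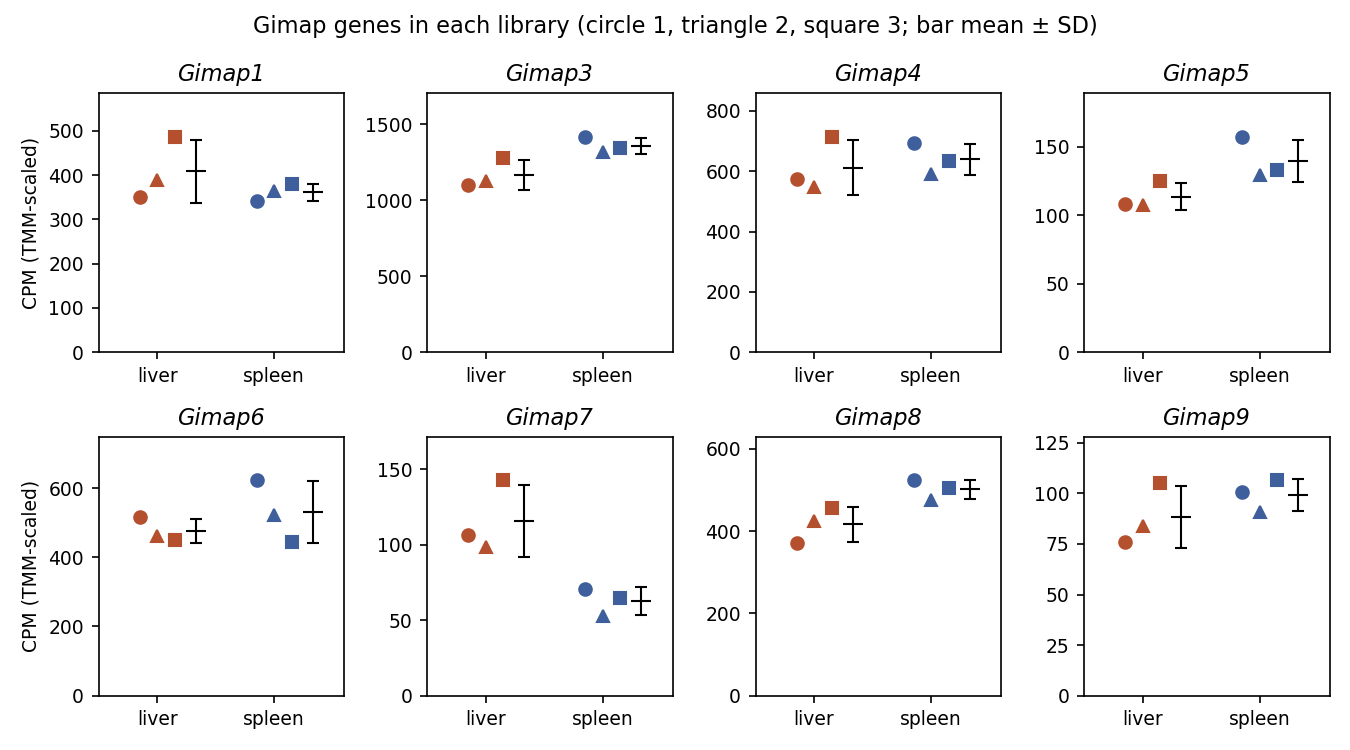
Each panel plots 1 Gimap gene in TMM-scaled CPM (vertical axis from 0) in the 3 liver (red) and 3 spleen (blue) libraries, with the mean ± SD as a bar beside them. Gimap7 sits between 98.5 and 143 CPM in liver and between 52.9 and 70.6 CPM in spleen, while Gimap3, Gimap5 and Gimap8 sit lower in liver by a smaller margin and the other 4 overlap.

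Gimap5 and Gimap3, a pair of close relatives linked to T cell survival, were both lower in every liver library without passing the test. Gimap5, a lysosomal protein, was at 108, 108 and 125 CPM in liver 1, 2 and 3 and at 158, 129 and 133 CPM in spleen 1, 2 and 3. The log2 fold change was -0.27 ± 0.11 (SE; edgeR adjusted p = 0.0955). Gimap3, the most abundant member, was at 1098, 1129 and 1281 CPM in liver and 1420, 1316 and 1343 CPM in spleen. Its log2 fold change was -0.22 ± 0.09 (SE; edgeR adjusted p = 0.131). In both genes the highest liver library was liver 3, and the gap to the lowest spleen library was narrow.

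Gimap8 is the largest member and carries several GTPase domains in 1 chain. It was at 372, 424 and 455 CPM in liver 1, 2 and 3 and at 524, 477 and 504 CPM in spleen 1, 2 and 3, with no overlap. Its log2 fold change was -0.26 ± 0.10 (SE; edgeR adjusted p = 0.0842). Libraries did not overlap in the direction of spleen for these 3 of the 8 members, against 15.2% of all genes tested, and in the direction of liver for 1 of 8, against 17.7%. In either direction that is 4 of 8 members, against 32.9% of genes. Without liver 3, the highest liver library of each, all 3 passed the test (edgeR adjusted p = 0.0418 for Gimap3, 0.0339 for Gimap5 and 0.0385 for Gimap8). None of them passed without liver 1 (edgeR adjusted p = 0.359, 0.255 and 0.328 in the same order). Nor did they without liver 2 (edgeR adjusted p = 0.377, 0.297 and 0.195). The share of all genes that passed without liver 3 is not given here.

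Gimap1, which mature lymphocytes need to survive, was at 351, 388 and 487 CPM in liver 1, 2 and 3 and at 342, 363 and 379 CPM in spleen 1, 2 and 3. The groups overlapped, and liver 3 alone stood above the spleen range by a wide margin (log2 fold change 0.17 ± 0.11, SE; edgeR adjusted p = 0.352). Gimap4, linked to the pace of T cell death, was at 573, 547 and 715 CPM in liver and 693, 591 and 634 CPM in spleen. These overlapped almost entirely (-0.06 ± 0.11, SE; edgeR adjusted p = 0.780). Gimap6, which binds the autophagy protein Gabarapl2, was at 516, 460 and 450 CPM in liver and 623, 523 and 445 CPM in spleen. Spleen 3 was the lowest of the 6 for Gimap6 and spleen 1 the highest (-0.15 ± 0.11, SE; edgeR adjusted p = 0.443). Gimap9 was at 75.9, 83.7 and 105 CPM in liver and 101, 90.9 and 107 CPM in spleen, and the groups overlapped (-0.17 ± 0.13, SE; edgeR adjusted p = 0.432).

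The data bound how far these 7 genes can have moved. Their 95% intervals for the log2 fold change, not adjusted for the number of genes, ran from -0.49 at the lowest to 0.41 at the highest. The interval of Gimap7 was 0.62 to 1.23 and overlapped none of them, though the difference between members was not itself tested. Of the 7, 6 had a value below 0, and the median of all 8 members was -0.16 against -0.01 for all genes tested. The summed level of the 8 members was 3200, 3238 and 3762 CPM in liver 1, 2 and 3 and 3931, 3543 and 3610 CPM in spleen 1, 2 and 3. Liver 3 lay inside the spleen range, so the family as a whole overlapped between the tissues.

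Gimap7 made up more of the family's counts in each liver library than in any spleen library. A share of the summed Gimap counts does not depend on how libraries are scaled to each other. Gimap7 took 3.32%, 3.04% and 3.80% of them in liver 1, 2 and 3 and 1.80%, 1.49% and 1.80% in spleen 1, 2 and 3. Gimap3 took 34.1% to 34.9% in liver and 36.1% to 37.2% in spleen, and Gimap5 3.32% to 3.39% against 3.65% to 4.01%. Gimap8 took 11.6% to 13.1% in liver and 13.3% to 14.0% in spleen, and Gimap1 11.0% to 13.0% against 8.69% to 10.5%. The gaps for Gimap3 and Gimap8 are smaller than the counting error of spleen 1. Its 95% interval spans 4.86% of the level on either side for Gimap3 and 8.03% for Gimap8. Shares of Gimap4, Gimap6 and Gimap9 overlapped. The shares were not tested, since those of 8 genes add up to a fixed total.

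Within a tissue most members had the same highest library. Liver 3 held the highest liver value of 7 members, and spleen 1 the highest spleen value of 6. Gimap6 was the exception in liver, where its highest library was liver 1. Over all genes compared, liver 3 also differed more from liver 1 and liver 2 (chi-square of 12.7 and 12.2 per degree of freedom) than these from each other (6.28). Spleen 1 was the shallow library, with a counting error from 4.86% of the level for Gimap3 to 22.3% for Gimap7. The share of all genes highest in these libraries was not counted, and a library-wide shift was not tested. Profiles of 2 genes were compared by the root mean square difference of their centred log2 CPM over the 6 libraries, a description with no test. The closest pair of members was Gimap3 and Gimap8, at 0.05 log2 units, followed by Gimap3 and Gimap5 at 0.07. Gimap7 was at least 0.39 from each other member, with Gimap1, its next gene along the chromosome, the nearest.

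Levels of different genes can be compared only per length, here as CPM per kilobase of exon in GENCODE M21. In spleen the order was Gimap3 (528 ± 20.9), Gimap4 (348 ± 27.8), Gimap6 (152 ± 25.5), Gimap8 (136 ± 6.43), Gimap1 (118 ± 6.13), Gimap9 (60.5 ± 4.82), Gimap5 (33.7 ± 3.71) and Gimap7 (27.0 ± 3.89; SD, n = 3). Library ranges of neighbours in that order overlapped only between Gimap6 and Gimap8. In liver Gimap7 stood at 49.8 ± 10.2 CPM per kilobase, above Gimap5 at 27.4 ± 2.38, and its range overlapped that of Gimap9 at 53.8 ± 9.28. Gimap7 was thus last in the order in spleen and seventh in liver. Liver ranges also overlapped between Gimap6 (136 ± 10.2) and Gimap1 (133 ± 23.0), and between Gimap1 and Gimap8 (113 ± 11.4), while Gimap3 (454 ± 38.0) and Gimap4 (333 ± 49.0) kept the top of the order. These lengths may differ from those of the authors' annotation, which was not given, and move the order, not the comparison between tissues.

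Sequence likeness among the members bears on how reads were assigned. Coding sequences of Gimap3 and Gimap5 were 86.8% identical over their alignment, the highest of the 28 pairs, and Gimap7 and Gimap9 followed at 64.1%. Gimap3 and Gimap5 share a run of 140 identical coding bases, shown here in capitals with 15 bases on each side (bases 160 to 329 of the Gimap3 coding sequence and 172 to 341 of that of Gimap5, from GENCODE M21).
Gimap3: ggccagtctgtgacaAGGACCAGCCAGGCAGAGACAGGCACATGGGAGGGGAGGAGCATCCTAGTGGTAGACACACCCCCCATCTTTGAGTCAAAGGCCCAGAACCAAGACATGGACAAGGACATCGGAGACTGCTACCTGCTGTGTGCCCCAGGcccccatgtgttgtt
Gimap5: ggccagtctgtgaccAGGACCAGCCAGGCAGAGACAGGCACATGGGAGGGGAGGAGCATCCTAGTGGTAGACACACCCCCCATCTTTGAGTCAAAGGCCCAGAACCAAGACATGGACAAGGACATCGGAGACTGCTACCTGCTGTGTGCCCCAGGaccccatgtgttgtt
Of all 50-base windows in Gimap3 transcripts, 8.15% also occurred in transcripts of another gene, mostly Gimap5, and 4.53% of those of Gimap5 occurred in Gimap3. Reads lying wholly in such stretches cannot be placed on 1 gene, so the counts of Gimap3 and Gimap5 are uncertain to that extent. This search left out Gm28053 and Gimap1os, which share exon bases with members at the locus. Apart from those, 0 of 2307 windows of Gimap7 occurred in another gene, and likewise for Gimap4, Gimap8 and Gimap9. Exons of the readthrough transcript Gm28053 cover 3.48% of Gimap7 exon bases, 6.44% of those of Gimap1 and 3.69% of those of Gimap5. The antisense gene Gimap1os covers 36.0% of the exon bases of Gimap1, and without a stated strand setting its reads cannot be told apart from those of Gimap1.

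None of the tested genes around Gimap7 passed the test. In RefSeq order the cluster runs Gimap8, Gimap9, Gimap4, Gimap6, Gimap7, Gimap1, Gimap5 and Gimap3, with no other gene of the table between them. Gimap6, on one side of Gimap7, had a log2 fold change of -0.15 and Gimap1, on the other, 0.17, and neither passed the test. The 4 nearest genes of the table on each side of the cluster were Gm5111, Repin1, Zfp775 and AI854703, and Tmem176b, Tmem176a, Abp1 and 1600015I10Rik. Of these, 5 had enough counts to be tested and 0 passed by edgeR; Zfp775 was the most abundant, at 11.8 ± 0.65 against 7.33 ± 4.86 CPM (0.40 ± 0.30, SE; edgeR adjusted p = 0.427). Tmem176b, a membrane protein of myeloid and some T cells, was at 2.96 ± 0.35 and 4.18 ± 1.61 CPM.

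**Figure D2:**
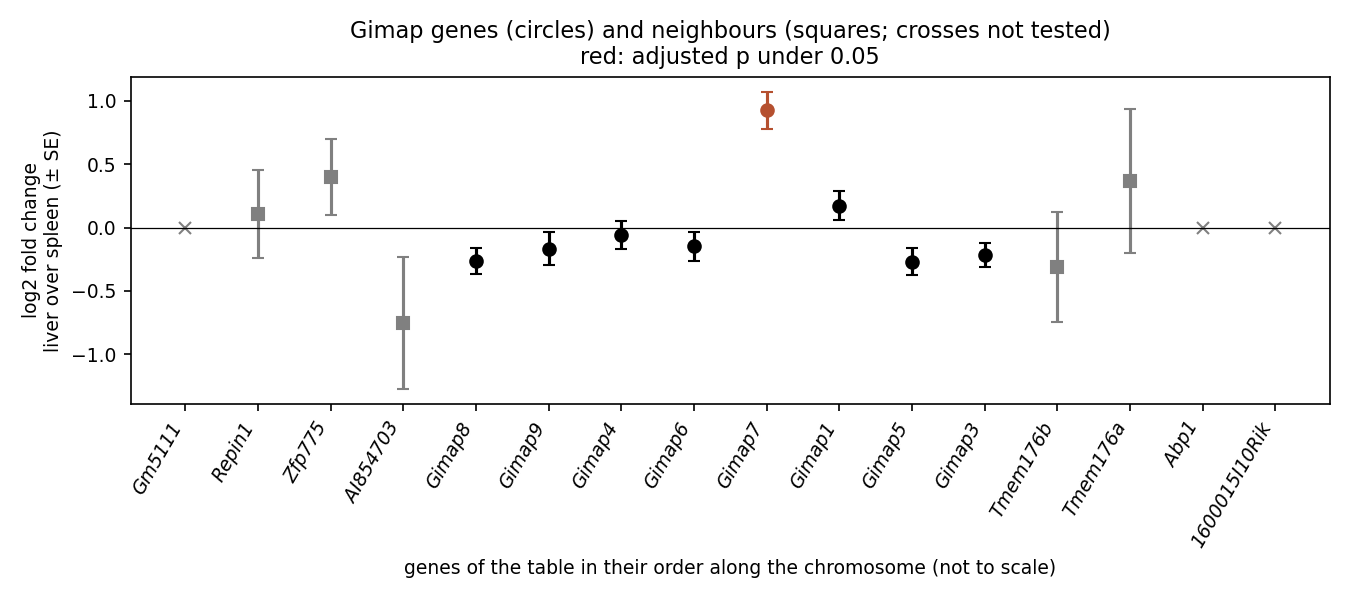
Log2 fold changes of liver over spleen (± SE, vertical axis) are drawn for the Gimap genes (circles) and the 4 nearest genes of the table on each side (squares, or crosses where not tested), in their order along the chromosome. Gimap7 at 0.92 stands alone in red, the colour of adjusted p under 0.05, between Gimap6 at -0.15 and Gimap1 at 0.17.

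Gimap6 works with the Atg8 proteins of autophagy, so this machinery was read beside it. Of 16 genes of the Atg8 and autophagy list, 3 were higher in liver, against 9.28% of all genes, and 0 higher in spleen, with 0 also at an unadjusted p under 0.05, by DESeq2 and by limma-voom. Ulk1, the kinase that starts autophagy, was at 123 ± 8.09 against 89.2 ± 7.42 CPM (log2 fold change 0.44 ± 0.10, SE; edgeR adjusted p = 0.00632). The cargo receptor gene Sqstm1 (0.43 ± 0.10) and the Atg8 gene Map1lc3b (0.31 ± 0.09) were higher as well. Gabarapl2, the Gimap6 partner, was at 59.4 ± 10.2 against 47.4 ± 6.27 CPM (0.37 ± 0.15, SE; edgeR adjusted p = 0.107), and the list median was 0.13 against -0.01 for all genes. Without liver 1, spleen 2 or spleen 3 the count higher in liver was 1; Sqstm1 lost its call in each of these 3 cases and Map1lc3b in these and without liver 2.

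Gimap proteins have been linked to the Bcl-2 family, which sets the threshold for mitochondrial cell death, and its members moved both ways. Of 14 tested genes, 4 rose toward liver, against 9.28% of all genes, and 3 toward spleen, against 6.90%, with a median of 0.12. Bcl2, the survival factor of resting T cells, fell to 141 ± 17.0 CPM in liver from 265 ± 18.0 CPM in spleen (-0.91 ± 0.10, SE; edgeR adjusted p = 7.98e-06). Pmaip1, which encodes the pro-death protein Noxa, was at 36.7 ± 4.14 against 18.3 ± 4.82 CPM (0.89 ± 0.18, SE; edgeR adjusted p = 0.00195). Bak1, a pore-forming death effector, was higher (0.43 ± 0.13) and Bcl2l11, the pro-death gene for Bim, lower (-0.32 ± 0.09). The rest of the called genes were Bcl2l1 (0.39 ± 0.12) and Bad (0.64 ± 0.20), higher in liver, and Bcl2l2 (-1.02 ± 0.34, SE), lower. The pro-death genes Pmaip1, Bak1 and Bad were thus higher in liver and the pro-survival genes Bcl2 and Bcl2l2 lower. Pro-survival Bcl2l1 and pro-death Bcl2l11 went the other way, and sorting by role was not tested. The count higher in liver was 2 without liver 1 and 1 without liver 3 or spleen 2, and the count higher in spleen was 1 without liver 1, liver 2, spleen 2 or spleen 3. Bak1 lost its call without liver 1, liver 3, spleen 1 or spleen 2, and Bcl2l11 without liver 1, liver 2, spleen 2 or spleen 3.

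Genes of T cell quiescence and recirculation, the state in which Gimap proteins are studied most, were higher in spleen for 4 of 18 genes, against 6.90% of all genes, and in liver for 1, against 9.28%, with a median of -0.16. The 4 were the transcription factor and chromatin genes Tcf7 (-0.57 ± 0.11), Satb1 (-0.61 ± 0.12), Lef1 (-0.43 ± 0.10) and Bach2 (-0.75 ± 0.18; SE). By DESeq2's Wald test Bach2 did not pass (adjusted p = 0.0836), and the count higher in spleen was 3. Their direction is that of Gimap3, Gimap5 and Gimap8, which did not pass, and not that of Gimap7. A link was not tested. The list was mixed: at an edgeR unadjusted p under 0.05, 7 genes were higher in spleen and 4 in liver. Over all 11716 genes tested these were 1542 and 1779. With adjustment, the chemokine receptor gene Ccr7 was the 1 higher in liver. That adjusted count was 0 without liver 1, liver 2, spleen 2 or spleen 3, 2 without liver 3 and 4 without spleen 1. Of 12 genes around Gsk3, the kinase held in check through Gimap5, and the growth kinase complex mTORC1, 0 passed in either direction by edgeR or DESeq2. At an unadjusted p under 0.05 they numbered 1 in each direction, as by limma-voom, and Gsk3b itself was at 173 ± 21.5 against 148 ± 5.79 CPM (0.23 ± 0.10, SE; edgeR adjusted p = 0.154). Without spleen 1, the count of these 12 higher in spleen was 1.

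**Figure D3:**
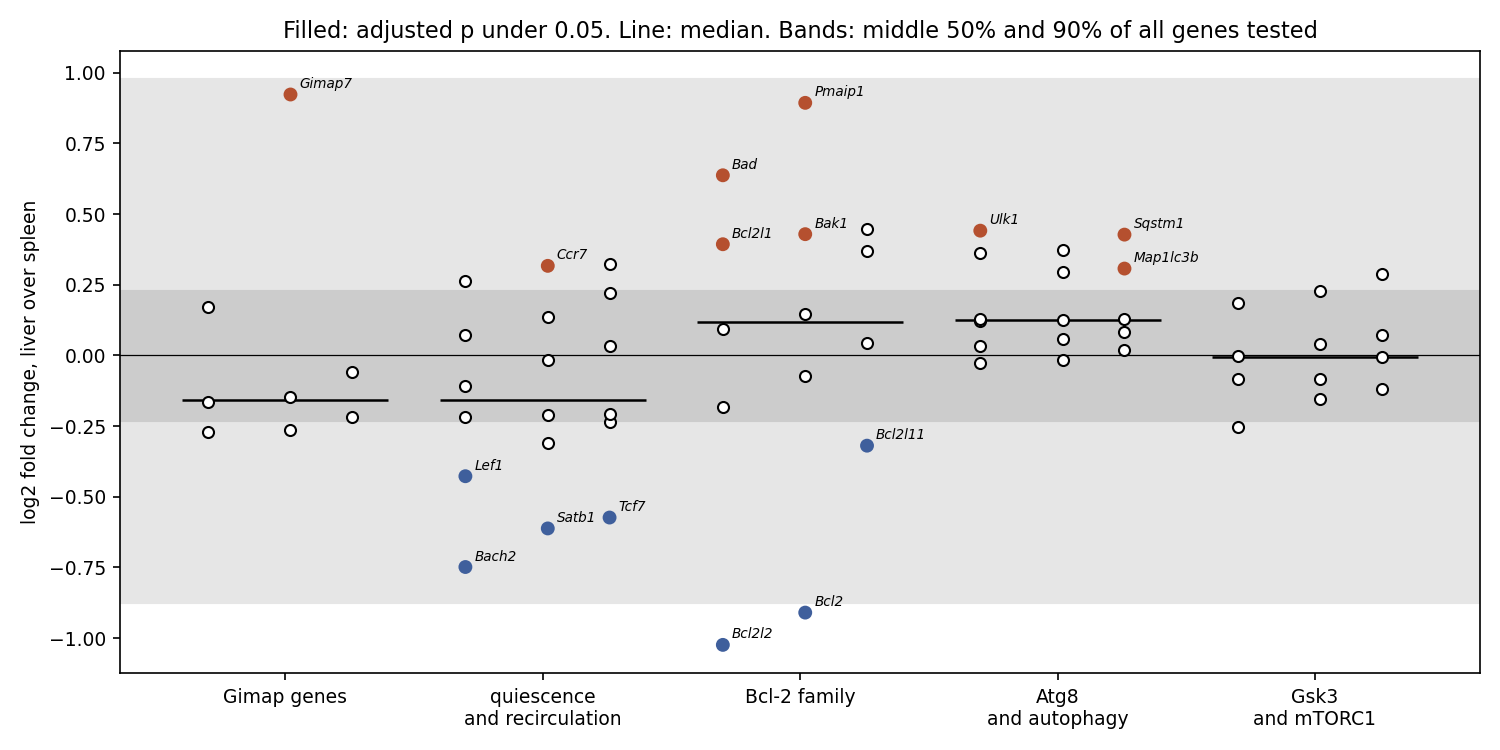
Log2 fold changes of liver over spleen (vertical axis) are drawn for the tested genes of the Gimap family and of 4 related lists, filled and named where adjusted p was under 0.05, with the median as a line and the middle 50% and 90% of all genes tested as grey bands. Gimap7 stands apart at 0.92 from the other 7 Gimap genes, whose values run from -0.27 to 0.17.

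Other cell types that express Gimap genes, among them NK cells, CD8 T cells, B cells and endothelial cells, were checked by their markers. Of 9 tested NK and CD8 T cell markers, 5 were higher in liver, as Gimap7 was, against 9.28% of all genes. In spleen 1 was higher, against 6.90%. The listed markers summed to 114 to 136 CPM in liver and 52.1 to 68.8 CPM in spleen. Nkg7, the most abundant of them, was at 62.0, 50.7 and 76.7 CPM in liver 1, 2 and 3 and 29.3, 20.1 and 22.2 CPM in spleen 1, 2 and 3. The highest library of both Nkg7 and Gimap7 was liver 3, but liver 3 held the highest liver value of 7 Gimap members. That match is therefore not particular to Nkg7 and Gimap7. Nkg7 was higher in every liver library than in any spleen library. The cytotoxic granule genes Gzma (13.3 ± 1.26 against 1.40 ± 0.66 CPM) and Prf1 (14.3 ± 2.57 against 4.08 ± 1.30 CPM), chosen after their values were seen, moved the same way. The NK cell receptor genes Klrd1 (2.94 ± 0.77 against 0.26 ± 0.31 CPM) and Klrb1c (3.80 ± 0.34 against 0.97 ± 0.84 CPM) were the other two higher in liver, and Eomes was the marker lower there. Ncr1 and Klre1 were too low to test, at up to 2.02 and 1.10 CPM. Cd8a and Cd8b1 reached 5.50 and 9.35 CPM, and Tyrobp was at 9.56 ± 3.30 against 10.5 ± 4.05 CPM; none of these 3 passed. Their part in the Gimap7 result was not tested.

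Of 10 B cell markers 6 were higher in spleen, against 6.90% of all genes, in the direction of Gimap3, Gimap5 and Gimap8. The B cell markers summed to 142 to 167 CPM in liver and 235 to 343 CPM in spleen. The 11 endothelial markers summed to 185 to 227 CPM in liver and 246 to 269 CPM in spleen; 4 could be tested, and 1, Stab2, passed. Pecam1, which T cells also express, was at 209 ± 21.9 against 239 ± 16.9 CPM and Stab2 at 0.40 ± 0.38 against 10.8 ± 5.10 CPM. Lyve1 was at 0 counts in all libraries and Cdh5 reached 2.20 CPM. Kdr and Tie1, too low to test, were at most 0.12 and 0.09 CPM in liver and 0.86 to 2.06 and 0.26 to 6.89 CPM in spleen. Macrophage (7 of 8), granulocyte (8 of 9) and erythroid (8 of 8) markers were higher in spleen, against the same 6.90%. Summed levels in liver and spleen were 73.3 to 83.1 and 123 to 188 CPM, 250 to 286 and 468 to 793 CPM, and 11.3 to 16.8 and 191 to 278 CPM. Markers of dividing cells were higher in liver in 12 of 12 cases, against 9.28% of all genes. They summed to 2089 to 2276 CPM in liver against 759 to 897 CPM in spleen. The part of these shifts in the Gimap values was not tested.

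By the same profile distance, and among the 8748 genes with a mean of at least 10 CPM outside the family, the 5 nearest to the mean of the 8 members were Fam108a, H13, Ufm1, Gpr132 and Chtop, at 0.03 to 0.04 log2 units. These profiles were flat between the tissues, with log2 fold changes from -0.05 to 0.06. The mean they were matched to includes Gimap7 at 0.92 together with 6 members below 0. It is therefore not the profile of most members, whose median over all 8 was -0.16. Among the nearest to Gimap7, a comparison added after its values were seen, were the thioesterase gene Acot7, the galectin gene Lgals1, the interferon-induced GTPase gene Gbp2 and Arap3, at 0.07 to 0.11 log2 units. Lgals1 was at 558, 553 and 710 CPM in liver 1, 2 and 3 and 359, 265 and 314 CPM in spleen 1, 2 and 3. Lgals1 was picked for its closeness to Gimap7 over these libraries. That both were highest in liver 3 and lowest in spleen 2 follows from that choice.

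**Figure D4:**
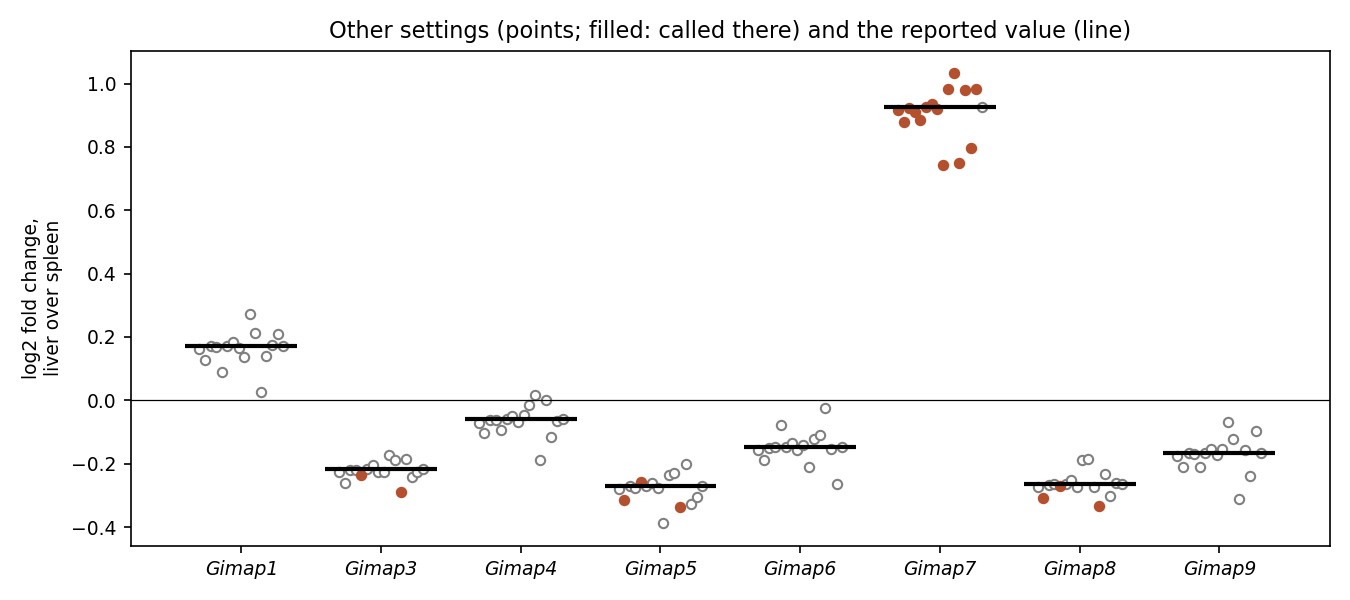
For each Gimap gene the log2 fold change of liver over spleen (vertical axis) is drawn under 16 other settings of scaling, test, filter, depth or libraries (points, filled where called) and as reported (line). Gimap7 stays between 0.74 and 1.03 and the other 7 between -0.39 and 0.27.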

How the data were processed

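RNA was measured in sorted CD4+GFP+ Treg cells from 3 liver and 3 spleen samples. The authors deposited raw read counts per gene symbol; reads were processed with HISAT2 2.1, HTSeq 0.11 and mm9, per the submitters' processing notes, while annotation and strand setting were not given in the sources used here. The 5 summary rows that name no gene, 25.5% to 29.0% of a library's counts, were left out. Genes kept by filterByExpr (11716) were scaled by TMM and tested for liver minus spleen with edgeR 4.0.16 (quasi-likelihood F test, Benjamini-Hochberg over all genes tested, threshold 0.05) in R 4.3.3; SE is that implied by the F statistic, and centred log2 CPM used a prior count of 2. No pair of libraries of the same tissue agreed within sampling noise (a chi-square of at least 4.71 per degree of freedom). Simulated counts gave 24 of 60 genes recovered at 1.5-fold, 59 of 73 at 2-fold and 65 of 67 at 4-fold for liver against spleen, with 9 of 157 calls false among 11588 genes. A floor of 3 counts is 2.50 CPM in spleen 1 and at most 0.356 CPM elsewhere.

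The members and lists were chosen with earlier results of these data known. Named genes are all members, the 4 smallest p of each related list, the 2 most abundant of each marker list where given, 4 neighbours on each side and the 5 nearest profiles. Other genes named were chosen after values were seen, among them Ccr7, Bcl2l1, Bad, Bcl2l2, Ctla4, Il2ra, Lat, Gzma and Prf1. So were marker genes at or near 0, the nearest profiles to Gimap7, the promoter motifs and the shared sequences. Alternatives used DESeq2 1.42.0 and limma 3.58.1; sequence work used Biopython 1.88. Of the 5 profiles nearest to Gimap7, 1 is not reported here.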

Additional observations from a re-analysis of the deposited data

How the results depend on the processing

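Gimap7 was called toward liver in 15 of 16 other settings, at a log2 fold change of 0.74 (all libraries thinned at random to the depth of spleen 1) to 1.03 (without liver 2), with adjusted p from 3.11e-12 to 0.00321. With a minimum log2 fold change of 1 the number of members higher in liver was 0, since Gimap7 is at 0.92. The number of members higher in spleen, 0 as reported, was 2 with upper-quartile scaling (Gimap5 and Gimap8) and 3 with limma-voom and sample quality weights (Gimap3, Gimap5 and Gimap8), and 0 to 3 with a library left out, the 3 being without liver 3. The median over the members ranged from -0.24 to -0.09. No member's direction reversed where it was called; Gimap4, never called, was above 0 in 1 setting, without liver 2.

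Over the 4 related lists together, 8 genes were called toward liver and 7 toward spleen. The first count was 3 with upper-quartile scaling, 14 with limma-voom, 3 at equal depth, 0 with a minimum log2 fold change of 1, and 2 to 11 with a library left out. The second was 1 with that minimum and 5 to 8 with a library left out. By list, upper-quartile scaling gave 0 quiescence and 1 Bcl-2 family genes higher in liver, limma-voom gave 4 quiescence genes higher in liver, and equal depth gave 0 quiescence genes and 1 Bcl-2 family gene higher in liver and 1 Bcl-2 family gene higher in spleen. Bach2 lost its call by DESeq2's Wald test (adjusted p = 0.0836). That test, and edgeR with no filter on low counts, each gave 2 quiescence genes higher in liver. With a minimum log2 fold change of 1, no list had a gene higher in liver, and the quiescence list had 0 and the Bcl-2 family 1 higher in spleen. The cause of these shifts was not tested. Over all genes the reported counts, 1087 and 808, were 596 and 419 at equal depth, 722 and 486 without spleen 2, 428 and 267 with the minimum, 1521 and 1243 with limma-voom, and 954 and 1014 with upper-quartile scaling, which turns the balance of the directions. Depth limits the small differences: in spleen 1 the counting interval of Gimap5 alone spanned 136 to 182 CPM. No paired analysis was possible because the labels give no replicate numbers shared between the tissues.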
